A study of Homo sapiens with 6 samples.

Results

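Gene expression was compared between 2 established human ovarian carcinoma cell lines, Caov-3 and SKOV-3, on 6 Affymetrix U133 Plus 2.0 arrays, 3 of each line. In each line 1 array held untreated cells, 1 held cells after 1 h of interleukin-6 (IL-6, 30 ng/ml), and 1 held cells given siltuximab, an antibody against IL-6, for 4 h and then the same IL-6. Each Caov-3 array was paired with the SKOV-3 array of the same treatment, so the 3 arrays of a line are 3 treatments and not replicates, and all 6 arrays of the series entered the comparison. Every array was hybridised with RNA pooled from 3 flasks, each line stands for the tumour it was grown from alone, and the labels give no dose of siltuximab. Of 19775 genes with a probe set of their own, 12651 had a signal at or above the array median on at least 3 arrays and were tested. A gene was called when limma gave an adjusted p under 0.05 (Benjamini-Hochberg over all genes tested) and the mean log2 difference, Caov-3 minus SKOV-3, was at least 1 in size, and 4297 genes met this. Of these, 4184 had every usable probe set in the same direction and were kept, where a usable probe set lay at or above the median on all 3 arrays of at least 1 line. They are the genes described here. The p-value measures how evenly a difference recurred over the 3 pairs of arrays, not over cultures or patients.

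Carcinoma cells can hold an epithelial state, in which E-cadherin (CDH1) joins neighbouring cells, or a mesenchymal state, in which vimentin (VIM) filaments replace this architecture and transcription factors such as ZEB1 and SNAI2 repress CDH1 and other epithelial genes. Cell division is gated by the retinoblastoma protein RB1, which the kinases CDK4 and CDK6 inactivate and which the inhibitor p16, a product of CDKN2A, protects. Tumour cells often lose either RB1 or CDKN2A, and MYC drives growth when it is amplified or overexpressed. Because lysates of whole cultures were measured, fewer cells with a transcript and less of it in each cell cannot be told apart.

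The deposited signals had been scaled by array (trimmed mean of 499.93 to 499.94, median of 72.6 to 89.6). Across genes, arrays correlated at r = 0.976 to 0.984 within a line and at 0.878 to 0.886 between lines. The Caov-3 IL-6 array stood apart in the control probe sets for beta-actin, with a 5' to 3' signal ratio of 0.494 against 0.643 to 0.767 on the other 5 arrays. Most listed markers of other cell types did not pass the filter. Those tested were 3 of 19 leukocyte, 5 of 14 fibroblast and 4 of 12 endothelial markers with a probe set of their own. The summed leukocyte list was at 1810 to 2009 in Caov-3 and 824 to 1297 in SKOV-3. Fibroblast markers summed to 5882 to 6729 and 997 to 1042, and endothelial markers to 684 to 1471 and 1329 to 1673. Some tested members were bright, with COL1A1 at 3802.5 to 4826 and CD3G at 450 to 648 in Caov-3. ENG was at 836 to 1128 in SKOV-3. Signals had no detection calls, so those near or below the pseudocount of 17.06, which was added before taking log2, were treated as not distinguishable from background. Adding it makes the difference of a gene that is dim in either line too small.

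The lines differed over a large share of the genome. Among the 12651 genes tested, 2483 were called higher in Caov-3 (19.6%) and 1814 higher in SKOV-3 (14.3%), with a median difference of 0.07 and a median size of 0.67 over all genes tested. With every probe set in the same direction, 2412 were higher in Caov-3 (19.1%) and 1772 in SKOV-3 (14%). Of the kept genes, 1028 were at least 4-fold higher in Caov-3 and 527 at least 4-fold higher in SKOV-3. At 16-fold the counts were 262 and 87, and at 64-fold 55 and 15. The signals of the lines did not overlap in 4980 genes higher in Caov-3 (39.4%) and 4233 higher in SKOV-3 (33.5%), and 3343 genes (26.4%) were at least 2-fold apart in the same direction in all 3 treatments. Between 2 arrays of a line 226 to 534 genes differed by at least 2-fold, against 2474, 2736 and 2515 higher in Caov-3 and 1961, 1954 and 1897 higher in SKOV-3 within the 3 treatments. Of the kept genes, 1069 were above the array median in a single line, 741 in Caov-3 and 328 in SKOV-3. Among all genes tested 1155 were, and these passed the filter only through the line where they were high, so most were called.

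**Figure D1:**
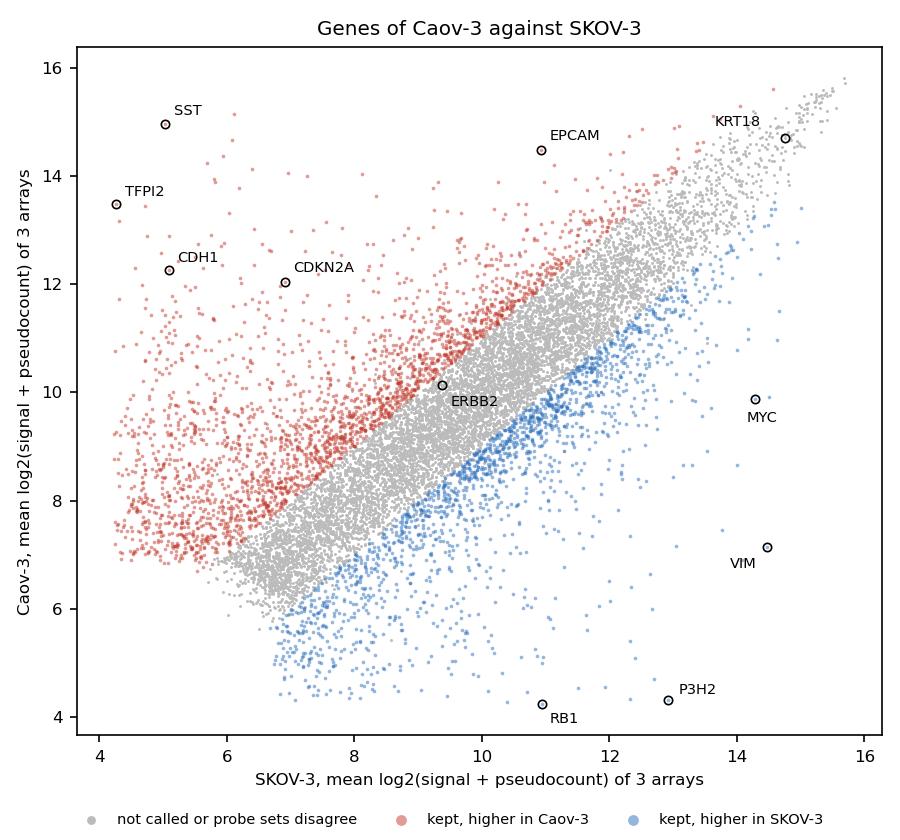
Mean log2(signal + pseudocount) of the 3 SKOV-3 arrays (x axis) and the 3 Caov-3 arrays (y axis) for each of the 12651 genes tested. Red points are the 2412 kept genes higher in Caov-3, blue points the 1772 higher in SKOV-3, and circles mark genes named in the text, with CDH1 and CDKN2A far above the diagonal and RB1, VIM and MYC far below it.

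Genes that mark the lines differed by far more than arrays of the same line. Signals are given below in the order untreated, IL-6, siltuximab plus IL-6, and a single value after a gene name is its log2 difference, Caov-3 minus SKOV-3, unless said otherwise. E-cadherin, CDH1, had signals of 27.5, 11.03 and 14.4 in SKOV-3 and of 4840.3, 5094 and 4763 in Caov-3, a log2 difference of 7.17 (SE 0.176, adjusted p = 2.94e-07). Vimentin, VIM, ran the other way, at 25830, 21648 and 21292 in SKOV-3 and 154, 98.3 and 126 in Caov-3 (-7.34, SE 0.101, adjusted p = 8.4e-08). For both genes the signals of the lines lay far apart in every treatment. A second, dimmer CDH1 probe set gave the same direction (2.38). RB1 was at 1640, 2282 and 1979.7 in SKOV-3 and 2.37, 0.975 and 2.304 in Caov-3, the latter below the pseudocount on all 3 arrays (-6.699, SE 0.205, adjusted p = 5.98e-07). CDKN2A stood at 175, 82.6 and 73.8 in SKOV-3 and 4271, 4239 and 4036 in Caov-3 (5.13, SE 0.204, adjusted p = 1.69e-06). MYC, a driver of growth, was at 22053, 19094 and 18957 in SKOV-3 and 959, 884 and 933 in Caov-3 (-4.41, SE 0.0752, adjusted p = 1.11e-07). The groups did not overlap in any of these 5 genes. The same held for 39.4% of all genes tested with Caov-3 higher and 33.5% with SKOV-3 higher.

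The arrays labelled SKOV-3 went against a known feature of that line. SKOV-3 is known for an amplified ERBB2, the gene of the receptor HER2, yet ERBB2 was at 648, 579.9 and 733 on these arrays and at 1017, 1243 and 1067 on the Caov-3 arrays, a difference of 0.75 towards Caov-3 that did not reach the 2-fold limit. GRB7, an adaptor gene that is amplified together with ERBB2, was at 197, 157 and 115 in SKOV-3 against 364, 324 and 356 in Caov-3, and was called higher in Caov-3 (1.103), but was under 2-fold with a larger pseudocount (0.79) or without the siltuximab plus IL-6 pair (0.90). The ERBB2 neighbourhood as a list had 17 of 27 members tested, of which 1 was called higher in Caov-3 and 4 higher in SKOV-3 (5.88% and 23.5%, against 19.6% and 14.3% of all genes tested), with a median of -0.56. The 4 were RARA (-1.82), a retinoic acid receptor, CDC6 (-1.62), MED1 (-1.400) and CDK12 (-1.13). A deleted CDKN2A is also known of SKOV-3, and CDKN2A was low on these arrays. Line names below are those of the labels, and whether the labels are right was not tested.

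**Figure D2:**
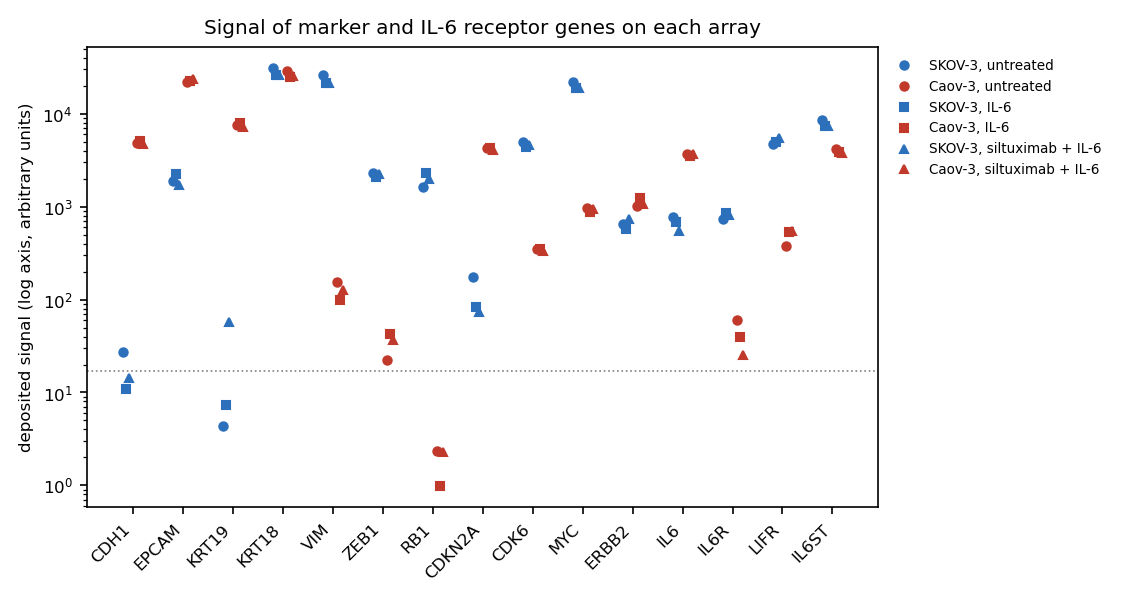
Deposited signal (log axis) of 15 genes on each of the 6 arrays, with SKOV-3 in blue and Caov-3 in red, and circles, squares and triangles for untreated, IL-6 and siltuximab plus IL-6. The dotted line is the pseudocount of 17.06. Signals of a line lie close together, and RB1 in Caov-3 and CDH1 in SKOV-3 fall near or below that line.

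Epithelial genes were higher in Caov-3 as a group. Of 43 listed genes of junctions and epithelial identity, 39 were tested, 35 were called higher in Caov-3 and 0 higher in SKOV-3 (89.7% against 19.6% of all genes tested, and 0 against 14.3%), and the list median was 3.54. The splicing regulator ESRP1, which directs epithelial isoforms, was at 48.8, 12.4 and 5.64 in SKOV-3 and 3514, 3765 and 3197 in Caov-3 (6.63, SE 0.277, adjusted p = 2.08e-06). SPINT1, a membrane inhibitor of serine proteases, was at 23.8, 11.3 and 14.03 in SKOV-3 against 1821, 2169.6 and 2258 in Caov-3 (5.98, SE 0.208). EHF, an ETS factor of epithelia, was at 100.2, 108 and 58.9 in SKOV-3 against 5966, 6652 and 6107 in Caov-3 (5.91, SE 0.153). SKOV-3 signals of ESRP1 and SPINT1 lay below the array median and those of EHF near it, and 13 of the 39 genes were above the array median in a single line. The cell surface mucin MUC1 (5.91), P-cadherin CDH3 (5.89), the recycling GTPase RAB25 (5.78), the tight junction genes CLDN3 (5.603) and CLDN7 (4.103) and the grainyhead factor GRHL2 (4.05) were also higher in Caov-3. EPCAM, an adhesion molecule, was at 1891, 2223 and 1728 in SKOV-3 and 22113, 22310 and 23634 in Caov-3 (3.54) and lay above the array median on all 6 arrays. The 4 genes not called were LSR, PKP3, CLDN4 and the desmosome gene DSP, at 0.59, 0.51, 0.398 and -0.41. CLDN1, a tight junction gene that was not on the list, was higher in SKOV-3 (-5.94).

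ZEB1 and SNAI2 bind the E-box CAGGTG, or CACCTG on the opposite strand, and the upstream sequences of 4 epithelial genes are shown because they carry it. They are the 250 bases before a start site, 5' to 3' on the gene's strand, from the RefSeq promoter table (GRCh38.p14), with the E-box in capitals. SPINT1 was chosen by rule, and the other 3 were the next listed genes in order of difference that held a match, added after values were seen. CDH1, ESRP1 and EPCAM are named only.
SPINT1 (chr15:40844227-40844476, plus strand): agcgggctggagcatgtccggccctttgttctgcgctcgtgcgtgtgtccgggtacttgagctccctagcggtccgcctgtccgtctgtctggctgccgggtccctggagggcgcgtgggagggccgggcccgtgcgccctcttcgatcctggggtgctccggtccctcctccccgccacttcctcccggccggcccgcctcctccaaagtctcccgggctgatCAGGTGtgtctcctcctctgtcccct
MUC1 (chr1:155192910-155193159, minus strand): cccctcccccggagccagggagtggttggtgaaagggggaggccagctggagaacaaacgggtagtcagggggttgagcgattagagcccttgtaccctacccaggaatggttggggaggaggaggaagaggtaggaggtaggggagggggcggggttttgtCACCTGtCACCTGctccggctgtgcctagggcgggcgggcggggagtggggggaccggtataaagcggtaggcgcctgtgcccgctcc
S100A14 (chr1:153616326-153616575, minus strand): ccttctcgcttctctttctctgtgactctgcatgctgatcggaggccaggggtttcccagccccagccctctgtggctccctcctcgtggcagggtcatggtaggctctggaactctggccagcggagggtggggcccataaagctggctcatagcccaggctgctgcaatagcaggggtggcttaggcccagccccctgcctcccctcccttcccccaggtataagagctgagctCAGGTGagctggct
RAB25 (chr1:156060910-156061159, plus strand): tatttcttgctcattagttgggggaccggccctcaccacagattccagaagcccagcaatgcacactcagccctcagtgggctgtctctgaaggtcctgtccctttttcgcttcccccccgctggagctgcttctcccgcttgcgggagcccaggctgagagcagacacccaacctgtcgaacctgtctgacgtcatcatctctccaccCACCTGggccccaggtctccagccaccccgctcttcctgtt
The match began 26 bases before the start site in SPINT1, 88 and 81 bases before it in MUC1, 14 in S100A14 and 41 in RAB25. Both strands were searched, and matches cannot overlap each other. Of 35116 such windows of 27305 genes 17.5% held the motif. Of the listed epithelial genes higher in Caov-3, 21 had an entry and 15 of them (71.4%) held the motif in at least 1 window. This compares with 5635 of the 27305 genes (20.6%). Among genes with an entry, the share was 21.1% of those tested and 27.9% of those kept as higher in Caov-3. Neither window of EHF held the motif, nor did the other window of SPINT1. A match is a description of the sequence, not a bound site. S100A14, a calcium-binding protein of epithelia, was at 58.7, 50.9 and 63.1 in SKOV-3 and 4221, 4083 and 4197 in Caov-3 (5.81).

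Keratins, the intermediate filaments of epithelia, split. KRT19 was at 4.37, 7.38 and 57.9 in SKOV-3 and 7518, 7936 and 7263 in Caov-3 (7.802, SE 0.344, adjusted p = 2.6e-06), and KRT5 (2.297) and KRT13 (2.33) were also higher in Caov-3, at signals of at most 218. KRT13 was under 2-fold with a larger pseudocount (0.96). KRT8 and KRT18, the keratins of simple epithelia, were at -0.05 and -0.07, with KRT18 at 31109, 26371 and 25949 in SKOV-3 and 29072, 25102 and 25323 in Caov-3. Of 8 keratins tested 3 were called higher in Caov-3 (37.5%, against 19.6% of all genes tested) and 0 higher in SKOV-3. The median was 0.44, but -0.0606 with no filter.

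Mesenchymal genes differed in both directions, with more calls towards SKOV-3. Of 33 listed members with a probe set of their own 24 were tested, and 11 of these had a positive difference. Of the 24, 13 were called higher in SKOV-3 (54.2%, against 14.3% of all genes tested) and 7 higher in Caov-3 (29.2%, against 19.6%). The median was -1.07, but -0.38 with no filter and -0.56 without _x_at and _s_at probe sets. ZEB1, a repressor of CDH1, was at 2293, 2085 and 2243 in SKOV-3 and 22.2, 43.03 and 36.8 in Caov-3 (-5.47, SE 0.186, adjusted p = 8.75e-07). SNAI2 (-3.64), the caveola genes CAV1 (-3.43) and CAVIN1 (-2.15), the hyaluronan receptor CD44 (-2.68) and the ligand TGFB2 (-3.62) were higher in SKOV-3 too. ZEB2 did not pass the filter, at 31.9, 34.1 and 34.6 in SKOV-3 against 7.08, 20.1 and 1.76 in Caov-3. Nor did the cadherin CDH2, at 43.6, 1.17 and 4.29 in SKOV-3 against 40.5, 67.1 and 40.05 in Caov-3. SNAI1, CDH11, CNN1, FBN1, MMP2, PRRX1 and THY1 did not pass it either. Higher in Caov-3 were MSN, the membrane-to-actin linker moesin, at 41.3, 23.03 and 27.4 in SKOV-3 and 5971, 7174 and 7352 in Caov-3 (7.18, SE 0.179), the adhesion molecule L1CAM (3.78), the transcription factors TWIST1 (3.498) and TWIST2 (3.68), the methyltransferase NNMT (2.43), LOX (1.41) and TAGLN (1.74, but -0.06 and not called without _x_at and _s_at probe sets). Fibronectin, FN1, was at 0.64 and was not called.

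Markers of Müllerian origin and ovarian carcinoma were mostly higher in Caov-3. Of 20 tested, 13 were called higher in Caov-3 and 3 higher in SKOV-3 (65% and 15%, against 19.6% and 14.3% of all genes tested). But 12 of the 20 were above the array median in a single line. These passed the filter only through the line where they were high, which favours a call. The median was 3.63, but 1.19 with no filter, 2.27 without _x_at and _s_at probe sets and 2.36 with a larger pseudocount. The tumour antigen PRAME was at 36.8, 11.4 and 43.9 in SKOV-3 and 5717, 5992 and 5595 in Caov-3 (6.99, SE 0.232). SPON1 (6.19), the kallikrein KLK5 (5.93) and mesothelin MSLN (5.87) were also higher in Caov-3. The serum markers HE4, encoded by WFDC2, and CA125, encoded by MUC16, stood at 5.65 and 5.17, and MUC16 was at 5.899, 2.92 and 3.34 in SKOV-3 and 859.9, 593 and 806 in Caov-3. GATA6 (-5.06), CRABP2 (-3.89) and MECOM (-3.46) were higher in SKOV-3. PAX8, the lineage factor of the Müllerian tract, was at 683, 574 and 495 in SKOV-3 against 971, 1009 and 1056 in Caov-3 (0.79, not called), and WT1 was near background on all 6 arrays (3.05, 8.05 and 5.29 in SKOV-3 against 19.3, 4.43 and 5.02 in Caov-3). Of 32 listed cancer-testis antigens 18 had a probe set of their own, and only PRAME and XAGE2 (2.296) passed the filter.

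HOX genes, which set position along the body axis and pattern the Müllerian tract, were called higher in Caov-3 for 13 of 20 tested and higher in SKOV-3 for HOXB6 alone (-1.87), 65% and 5% against 19.6% and 14.3% of all genes tested. The median was 1.47, and 0.84 with a filter on the mean signal. HOXD4 was at 26.00, 3.63 and 22.4 in SKOV-3 and 568, 750.2 and 664 in Caov-3 (4.36, SE 0.314). HOXD1 (3.83), HOXC6 (3.05) and HOXD8 (3.03) were higher in Caov-3 too. HOXC6 was at 886, 729.9 and 699 in SKOV-3 and 6010.3, 7045 and 6484 in Caov-3, a gene with signal in both lines.

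Of 24 tested genes of G1 control, RB1 and CDKN2A included, 4 were called higher in Caov-3 and 5 higher in SKOV-3 (16.7% and 20.8%, near the 19.6% and 14.3% of all genes tested), with a median of -0.11. The cyclin CCND3 was at 1380, 1229 and 1281 in SKOV-3 and 9964, 10056 and 10208 in Caov-3 (2.94, SE 0.0777). CDK6 was at 4962, 4338 and 4596 in SKOV-3 against 354, 347 and 331 in Caov-3 (-3.69, SE 0.0944), and CDK4 was also higher in SKOV-3 (-1.78), as were the RB1 relative RBL1 (-1.63) and the inhibitor CDKN1C (-1.45). The factor E2F2 was called higher in Caov-3 (1.07), but was under 2-fold with a larger pseudocount (0.93) or without the untreated pair (0.9996). The inhibitor CDKN2B, next to CDKN2A, was also higher in Caov-3 (2.92), at no more than 225. Neither CCNE1 (0.27, adjusted p = 0.105) nor CCND1 (-0.92, with 4085, 4584 and 4559 in SKOV-3 against 1958, 2469 and 2584 in Caov-3) was called.

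The second probe set of RB1 gave the same direction as the first, at -3.44, with 233 to 264 in SKOV-3 and 2.46 to 17.1 in Caov-3. The 10 nearest tested neighbours of RB1 in gene order had 0 calls and ran from -0.91 to 0.78. Around CDKN2A, 2 of the 10 nearest tested neighbours were called higher in Caov-3 and 2 higher in SKOV-3. Over all genes tested, 19.6% were called higher in Caov-3 and 14.3% higher in SKOV-3. A second CDKN2A probe set was at 16.8, 1.99 and 4.31 in SKOV-3 against 2907, 2945 and 3088 in Caov-3, and TUSC1, the tested gene beyond CDKN2B, was at 23.8, 3.799 and 20.2 in SKOV-3 against 2914, 2833 and 3038 in Caov-3 (6.54, adjusted p = 7.52e-07). MTAP, which lies on the other side of CDKN2A and salvages adenine, was not called by its brightest probe set (0.54, adjusted p = 0.144). Another MTAP probe set was at 1.73, 3.06 and 2.07 in SKOV-3 against 434, 373 and 448 in Caov-3, and the average of its probe sets differed by 2.25 (adjusted p = 0.000313). The 2 higher in SKOV-3 were the interferon genes IFNB1 (242, 203 and 172 in SKOV-3 against 28.5, 65.9 and 7.89 in Caov-3, -2.28) and IFNE (-1.35, but -0.61 with a larger pseudocount), on the MTAP side. KLHL9 (-0.96), which lies between IFNE and IFNB1, and CAAP1 (0.02), which lies beyond TUSC1, were not called. KLHL9 was at 2355, 2386 and 2513 in SKOV-3 and 1253, 1347 and 1107 in Caov-3.

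Of 32 tested genes of mitosis and DNA replication 3 were called each way (9.38%, against 19.6% and 14.3% of all genes tested), with a median of -0.25. TTK (1.403), MCM3 (1.18) and FOXM1 (1.18) were higher in Caov-3, and CDC6 (-1.62), TOP2A (-1.11) and CCNA2 (-1.103) in SKOV-3. MKI67, the proliferation antigen, was at 0.05. Of 22 tested p53 pathway genes 7 were called higher in Caov-3, 6 of them with every probe set in that direction, and 3 higher in SKOV-3 (31.8% and 13.6%, against 19.6% and 14.3% of all genes tested), with a median of 0.53. The damage sensor DDB2 was at 89.98, 124 and 166 in SKOV-3 and 2088, 2316 and 1957 in Caov-3 (3.93, SE 0.183). TP53INP1 (1.996) and the death receptor FAS (1.71) were also higher in Caov-3, while the stress cytokine GDF15 (-2.44), BAX (-1.33) and AEN (-1.01) were higher in SKOV-3, AEN by less than 2-fold without the untreated pair (-0.85). CDKN1A and MDM2, the p21 inhibitor and the p53 ligase, were at 0.55 and -0.39 and were not called.

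MYC had the largest difference of its network. Of 15 tested members 4 were called higher in SKOV-3 (26.7%, against 14.3% of all genes tested) and 1 higher in Caov-3 (6.67%, against 19.6%). The median was -0.45, but -0.10 with no filter. Besides MYC, the 3 were the pyrimidine synthesis enzyme CAD (-1.45), the heterodimer partner MLX (-1.34) and the polyamine enzyme ODC1 (-1.23). MXD3, an antagonist of MYC, was higher in Caov-3 (1.41). CAD and MLX were under 2-fold averaged over all probe sets, at -0.94 and -0.83. MAX (-0.73) and the nucleolar NCL (-0.52) were not called. Of the 10 nearest tested neighbours of MYC in gene order 7 were called higher in SKOV-3, namely NSMCE2 (-2.35), TRIB1 (-2.599), WASHC5 (-1.28), CYRIB (-1.69), ASAP1 (-2.21) and its intronic transcripts ASAP1-IT1 (-2.59) and ASAP1-IT2 (-2.07), each by less than MYC. The tested genes next to MYC were not among them. LRATD2 (0.11) and POU5F1B (0.59), just before MYC, were not called. GSDMC, just after it, was called higher in Caov-3 (1.33), but not with a larger pseudocount (0.99).

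Growth factor receptors differed by member, with 6 called each way among 25 tested (24%, against 19.6% and 14.3% of all genes tested) and a median of -0.12. FGFR2 was at 50.4, 19.1 and 23.7 in SKOV-3 and 1209, 1528 and 1474 in Caov-3 (4.93, SE 0.26), but at 0.26 without _x_at and _s_at probe sets. ERBB3, the partner receptor of HER2, was at 162, 153 and 102 in SKOV-3 against 3667, 3529 and 3484 in Caov-3 (4.54), and the stem cell factor receptor KIT was higher in Caov-3 too (3.85). FGFR1 (-2.72), the ligand EREG (-2.63), the ephrin receptor EPHA2 (-2.297) and the receptor tyrosine kinase AXL (-1.57) were higher in SKOV-3. EGFR was at 5195, 5295 and 5022 in SKOV-3 and 4655, 4919 and 5091 in Caov-3, a difference of -0.08 (SE 0.074, adjusted p = 0.357).

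Of 22 tested members of the IL-6 family and its signalling, 1 was called higher in Caov-3 and 5 higher in SKOV-3 (4.55% and 22.7%, against 19.6% and 14.3% of all genes tested), and 16 were not called. The median was -0.26, and -0.14 with no filter. IL6 itself was at 781, 677 and 540.1 in SKOV-3 and 3703, 3500.4 and 3656 in Caov-3 (2.43, SE 0.118, adjusted p = 3.74e-06). Its binding receptor IL6R was at 728, 864 and 813 in SKOV-3 against 60.02, 39.8 and 25.02 in Caov-3 (-3.84, SE 0.238, adjusted p = 1.09e-05). Ligand and receptor were thus higher in opposite lines, with no overlap of signals in either gene. IL6 lay above the array median on all 6 arrays, so SKOV-3 had signal of both. Signals also did not overlap in 39.4% of all genes tested with Caov-3 higher and 33.5% with SKOV-3 higher. LIFR, which shares the gp130 chain with IL6R, was at 4713, 4957 and 5477 in SKOV-3 against 373, 533 and 545 in Caov-3 (-3.36, SE 0.109). STAT6 (-1.51), JAK2 (-1.12) and IL11 (-1.06) were also called higher in SKOV-3. IL11 was at -0.14 averaged over all probe sets, and JAK2 was under 2-fold without the untreated pair (-0.83). IL6ST, the gp130 gene, was at 8466, 7344 and 7378 in SKOV-3 against 4206, 3857 and 3737 in Caov-3, just under the 2-fold limit (-0.97, adjusted p = 1.94e-05), and was past it averaged over all probe sets (-1.03). The feedback inhibitor SOCS3 was at -0.97 and passed the limit without the IL-6 pair of arrays (-1.002). STAT3 differed in sign between treatments, at 0.91, -1.58 and -0.22 in the untreated, IL-6 and siltuximab plus IL-6 pairs.

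Of 25 tested genes of NF-kB and inflammation, 8 were called higher in Caov-3 (32%, against 19.6% of all genes tested) and 3 higher in SKOV-3 (12%, against 14.3%), with a median of 0.43. Complement C3 was at 206, 245 and 123 in SKOV-3 and 5527, 7759 and 5433 in Caov-3 (4.94, SE 0.137), and the neutrophil chemokine CXCL1 at 210.3, 241 and 217 in SKOV-3 against 3122, 3736 and 3784 in Caov-3 (3.89). The iron-binding lipocalin LCN2 (3.64), CXCL8 (1.95) and TNF (1.94) were also higher in Caov-3. The interleukin-1 genes ran the other way, with IL1A at 1216, 1227 and 1319.6 in SKOV-3 against 3.94, 2.54 and 36.6 in Caov-3 (-5.501, but -0.72 and not called without _x_at and _s_at probe sets) and IL1B at -2.16. RELB, a subunit of NF-kB, was higher in SKOV-3 (-1.91), and RELA (0.21), NFKB1 (-0.304) and NFKBIA (0.37) were not called.

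Of 32 tested interferon-stimulated and MHC class I genes, 27 were not called, 4 were called higher in SKOV-3 and 1 higher in Caov-3 (12.5% and 3.12%, against 14.3% and 19.6% of all genes tested), with a median of -0.08. MX2, an antiviral GTPase, was at 6103, 5778 and 6139 in SKOV-3 and 533, 403 and 589.6 in Caov-3 (-3.53), and TAP2, a peptide transporter subunit of antigen presentation, at 5824, 5593 and 5408 in SKOV-3 against 627, 714 and 629 in Caov-3 (-3.06). The related MX1 (-1.26) and IFI6 (-1.69) were called too. IFI6 had an adjusted p of 0.0498, and its difference was -0.51 without the Caov-3 IL-6 array. HLA-F was higher in Caov-3 (1.28), on probe sets that may detect other MHC genes. ISG15 and TAP1 were at -0.37 and -0.76.

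**Figure D3:**
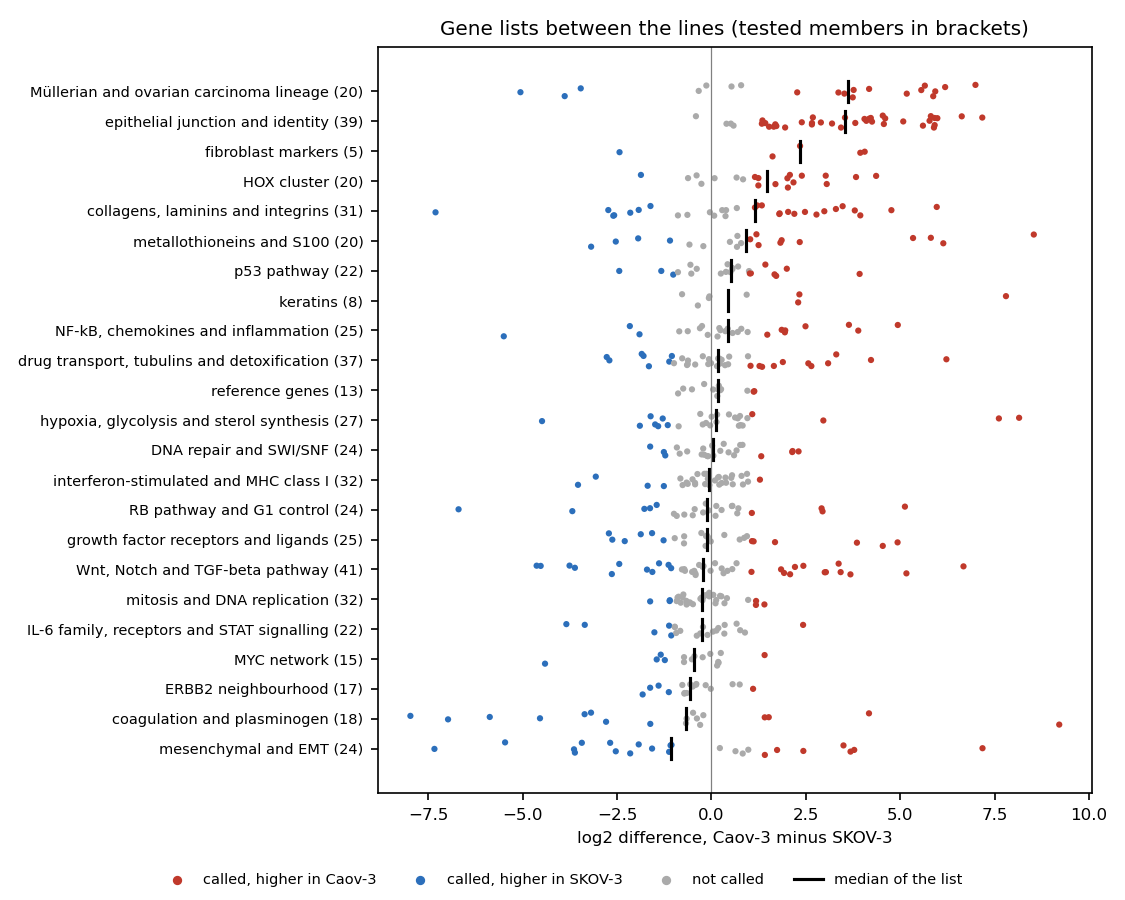
Log2 difference (Caov-3 minus SKOV-3) of each tested member of the 23 lists with at least 5 tested members, ordered by the list median (black bar). Red and blue points were called higher in Caov-3 and SKOV-3, and grey points were not called. The epithelial and Müllerian lists lie to the right, with medians of 3.54 and 3.63, and the mesenchymal list has members on both sides.

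Genes of the extracellular matrix and its receptors were called higher in Caov-3 for 16 of 31 tested (51.6%, against 19.6% of all genes tested) and higher in SKOV-3 for 7 (22.6%, against 14.3%). The median was 1.15, but 0.38 with no filter and 0.65 without _x_at and _s_at probe sets. The basement membrane collagen COL4A6 was at 86.4, 94.4 and 71.9 in SKOV-3 and 7168, 6062 and 5739 in Caov-3 (5.97, SE 0.118), and nidogen, NID1 (4.77), COL4A5 (2.99), COL18A1 (3.797) and the fibrillar COL1A1 (3.94) were also higher there. COL1A1 also marks fibroblasts and, at 3802.5, 4394 and 4826 in Caov-3, was itself part of the fibroblast sum given above. Of 14 listed fibroblast markers 4, COL1A1 included, were called higher in Caov-3 and 1 higher in SKOV-3. The other 9, COL3A1 and LUM among them, did not pass the filter. COL1A2, also of these 9, was at 33.5, 11.9 and 42.4 in SKOV-3 against 32.3, 10.5 and 12.9 in Caov-3. The cultures were of established carcinoma lines, and which cells in them gave the collagen signal was not tested. COL13A1, a membrane collagen, was at 6064, 4778 and 5480.4 in SKOV-3 against 21.3, 16.3 and 14.3 in Caov-3 (-7.31, SE 0.137). Collagen VI genes COL6A1 (-2.73) and COL6A2 (-1.61), the laminin LAMC1 (-2.15) and the integrins ITGA6 (-2.600) and ITGA5 (-1.93) were higher in SKOV-3, with COL6A2 at -0.25 and not called without _x_at and _s_at probe sets. ITGB1, the common beta chain, was at 0.39 and was not called.

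Of 18 tested coagulation and plasminogen genes, 8 were called higher in SKOV-3 (44.4%, against 14.3% of all genes tested) and 4 higher in Caov-3 (22.2%, against 19.6%), with a median of -0.67. TFPI, an inhibitor of tissue factor, was at 3049.5, 2966 and 2722 in SKOV-3 and 1.59, 8.86 and 8.86 in Caov-3 (-6.98, SE 0.192), whereas TFPI2, a related inhibitor of plasmin, was at 1.38, 1.17 and 4.12 in SKOV-3 against 11633, 11646 and 10939 in Caov-3 (9.21, SE 0.137, adjusted p = 8.4e-08). The 2 relatives were thus each near background in the line where the other was high. F2R, the thrombin receptor PAR1, was at 5069, 6399.8 and 4092 in SKOV-3 against 0.755, 1.08 and 9.01 in Caov-3 (-7.97), and thrombomodulin, THBD, at 4341, 4272 and 3753 in SKOV-3 against 53.5, 64.1 and 44.2 in Caov-3 (-5.87). Tissue factor, F3 (-2.79), urokinase, PLAU (-3.19), and thrombospondin, THBS1 (-3.36, but -0.98 without _x_at and _s_at probe sets), were higher in SKOV-3, and the serpin SERPINB5, known as maspin, in Caov-3 (4.17). PLAT, tissue plasminogen activator, was not called (-0.67).

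Drug transport and detoxification genes had 11 calls towards Caov-3 and 7 towards SKOV-3 among 37 tested, 6 of the latter with every probe set in that direction (29.7% and 18.9%, against 19.6% and 14.3% of all genes tested), with a median of 0.18. The glutathione transferase GSTM3 was at 32.7, 5.58 and 23.8 in SKOV-3 and 2570.1, 2850.4 and 2574 in Caov-3 (6.22), but at 0.50 and not called without _x_at and _s_at probe sets. GSTM1, a relative, was also higher in Caov-3 (3.09). The efflux pump ABCC3 was at 613, 324 and 324 in SKOV-3 against 4715, 4199 and 3533 in Caov-3 (3.31, SE 0.144). Among beta-tubulins, the targets of taxanes, TUBB2B was higher in Caov-3 (4.23) and TUBB2A in SKOV-3 (-2.703), and TUBB3 (-0.62) was not called. The tubulin-binding tau gene MAPT (-2.77) and the cystine transporter SLC7A11 (-1.799) were higher in SKOV-3. Tubulins and glutathione transferases have close relatives whose transcripts probe sets may share.

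Metallothioneins, which bind zinc and copper, were higher in Caov-3 wherever called. MT1M was at 37.9, 33.9 and 32.3 in SKOV-3 and 19173, 19831 and 18674 in Caov-3 (8.54, SE 0.1), and MT1G, MT1F, MT1H, MT1X and MT2A were at 2.34, 1.86, 1.83, 1.25 and 1.03. Their sequences are nearly alike, so single members are uncertain, and MT2A was just under 2-fold with quantile normalisation (0.95). S100 genes split, with S100A9 (6.14) and S100A8 (5.34), the subunits of calprotectin, higher in Caov-3 and S100A2 (-3.19) and S100A4 (-2.53) higher in SKOV-3. The joint list had 10 calls towards Caov-3 and 4 towards SKOV-3 among 20 tested (50% and 20%, against 19.6% and 14.3% of all genes tested), with a median of 0.91.

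Genes of hypoxia, glycolysis and sterol synthesis were called higher in SKOV-3 for 7 of 27 tested (25.9%, against 14.3% of all genes tested) and higher in Caov-3 for 4 (14.8%, against 19.6%), with a median of 0.13. LDHB, the lactate dehydrogenase subunit of oxidative tissues, was at 35.8, 67.1 and 21.7 in SKOV-3 and 17081, 15685 and 14707 in Caov-3 (8.15, SE 0.194), while LDHA was at 0.15 and the enolase ENO2 was higher in Caov-3 (2.96). The mitophagy gene BNIP3 was at 16.5, 14.7 and 11.5 in SKOV-3 against 5892, 6675 and 5788 in Caov-3 (7.61, SE 0.136). The vasodilator peptide gene ADM ran the other way, at 9656, 8723 and 8899.6 in SKOV-3 against 406, 389.8 and 371 in Caov-3 (-4.49), and 4 genes of sterol control or synthesis, SQLE (-1.896), INSIG1 (-1.61), SREBF1 (-1.49) and HMGCS1 (-1.41), were higher in SKOV-3. DNA repair and SWI/SNF genes had 4 calls towards Caov-3 and 3 towards SKOV-3 among 24 tested (16.7% and 12.5%, near the 19.6% and 14.3% of all genes tested), with a median of 0.03. The former were SMARCB1 (2.31, but 0.89 averaged over all probe sets), MGMT (2.15), SMARCA2 (2.14) and BRIP1 (1.32), and the latter were RAD51D (-1.62), SMARCC1 (-1.26) and ERCC1 (-1.22, but -0.84 averaged over all probe sets). Of 13 reference genes 2 were called, GUSB (1.14) and SDHA (1.12), the former at 0.84 averaged over all probe sets, both higher in Caov-3, and GAPDH and PPIA were at 0.24 and 0.16.

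Genes of Wnt, Notch and TGF-beta signalling differed member by member, with 13 of 41 called higher in Caov-3 and 11 higher in SKOV-3 (31.7% and 26.8%, against 19.6% and 14.3% of all genes tested) and a median of -0.21. Among Wnt genes the secreted antagonist SFRP1 was at 63.8, 6.74 and 45.99 in SKOV-3 and 4851, 5678 and 4668 in Caov-3 (6.68, SE 0.354), and the ligand WNT5A at 22.1, 1.65 and 10.95 in SKOV-3 against 777, 1218 and 947 in Caov-3 (5.16). The Wnt targets AXIN2 (3.001) and RNF43 (3.68) were also higher in Caov-3, and the effector LEF1 in SKOV-3 (-2.64). Of the Notch genes, the ligand JAG1 was at 2457, 2693 and 2333 in SKOV-3 against 96.8, 81.2 and 98.8 in Caov-3 (-4.52), and NOTCH1 was higher in SKOV-3 (-1.39) and NOTCH3 in Caov-3 (3.42). The activin subunit INHBA was at 1152, 1116 and 1076 in SKOV-3 against 38.4, 23.9 and 24.9 in Caov-3 (-4.63), with its antagonist FST (-3.76) and the receptor TGFBR2 (-1.57) also higher in SKOV-3 and the other subunit INHBB in Caov-3 (3.03). The BMP-induced ID2 (2.08) and ID3 (1.84) were higher in Caov-3.

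Genes with large differences outside these lists were often near background in 1 of the lines, so that their sizes and order depend on the pseudocount. Somatostatin, SST, a peptide hormone, was at 8.45, 6.496 and 41.5 in SKOV-3 and 34226, 29154 and 32528 in Caov-3 (9.93, SE 0.238, adjusted p = 2.86e-07). The protease inhibitor SPINK6 was at 55.3, 70.1 and 34.8 in SKOV-3 against 37412, 35984 and 34956 in Caov-3 (9.03), and the X-linked ARMCX2 at 1.97, 4.57 and 1.86 in SKOV-3 against 8738, 9759 and 9091 in Caov-3 (8.86). The matrix genes EFEMP1 (8.72), MFAP5 (8.41) and SPOCK2 (7.74), the metalloreductase STEAP4 (8.59), the ubiquitin hydrolase UCHL1 (8.08), the vitamin D hydroxylase CYP24A1 (7.599), TCIM (8.14) and ADIRF (7.75) were also higher in Caov-3. In SKOV-3 the collagen hydroxylase P3H2 was at 8439.6, 7477 and 7443 and in Caov-3 at 2.98, 2.12 and 3.78 (-8.605, SE 0.139, adjusted p = 1.09e-07). The growth factor PDGFC was at 6662, 6598 and 6581 in SKOV-3 against 22.5, 7.79 and 1.22 in Caov-3 (-7.98), and CCN2, a matricellular target of TGF-beta, at 17179, 17027 and 17686 in SKOV-3 against 100.1, 95.7 and 113 in Caov-3 (-7.18, SE 0.091). CCDC50 (-7.38), the long non-coding RNA LINC00973 (-6.92), the TNF family ligand TNFSF18 (-6.67), PLAC8 (-6.301), C4orf46 (-6.24), the mitochondrial elongation factor GUF1 (-6.12) and the protease PRSS3 (-5.996) were also higher in SKOV-3. Among markers of other cell types, CD3G (4.38), CD14 (2.43), FBLN1 (4.06), PDPN (2.35) and PECAM1 (2.09) were called higher in Caov-3 and ENG (-5.19) and POSTN (-2.43) in SKOV-3. The defining leukocyte gene PTPRC did not pass the filter, with 34.9, 4.38 and 1.96 in SKOV-3 and 35.1, 25.1 and 29.1 in Caov-3.

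Some called genes stood next to each other in the genome. Of the genes tested 12639 could be placed in the gene order of the RefSeq annotation (GRCh38.p14, used for order only), and 110 runs of at least 4 adjacent genes were called in the same direction, 68 towards Caov-3 and 42 towards SKOV-3. They held 550 genes, against 4297 called. With 19.6% and 14.3% of all genes tested called each way, some runs arise without clustering, and their expected number was not worked out. Some runs held relatives or overlapping transcripts, such as MT1M to MT1X and ASAP1 with its intronic transcripts. The longest held 13 genes, from MAP9 to TMEM192, all higher in SKOV-3 with a median of -3.74. Within it PDGFC, C4orf46 (-6.24), RAPGEF2 (-5.84), PPID (-5.18) and MAP9 (-4.71) had large differences, and NAF1 (-1.03) and TMEM192 (-1.15) the smallest, both under 2-fold with a larger pseudocount (-0.93 and -0.89). In Caov-3, 8 of the 13 were below a signal of 50 on every array. P3H2 lay in a run of 6 genes with LPP, CLDN1, IL1RAP, CCDC50 and MB21D2 (median -5.84), in which the tight junction gene CLDN1 was at 5074, 5155 and 5282 in SKOV-3 and 64.4, 52.6 and 90.1 in Caov-3. SST, which was higher in Caov-3, lay 2 tested genes before LPP. A run of 10 genes from NTAQ1 to MTSS1 was higher in SKOV-3 at a median of -1.73.

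Towards Caov-3 the longest run held 11 genes, from HDHD5 to PRODH, with a median of 2.78. It contained the apoptosis genes BID (2.32) and BCL2L13 (2.596), the proton pump subunit ATP6V1E1 (2.91) and the ISG15 protease USP18 (2.78). SMARCB1 began a run of 10 genes that ended with GUCD1 (median 2.20) and included the cytokine MIF at 13851, 11198 and 12861 in SKOV-3 and 39322, 32597 and 34769 in Caov-3 (1.49). The HOXD genes HOXD9, HOXD8, HOXD4 and HOXD1 and the non-coding HOXD-AS2, HAGLR and HAGLROS formed a run of 7 (median 3.58). Over sliding windows of 21 tested genes, medians lay between -0.78 and 0.90 in 90% of windows. The extremes were 2.32 from ADA2 to GNB1L and 2.01 from ARMCX4 to TCEAL1, and -2.19 from RNF175 to ANXA10 and -1.82 from TBC1D31 to TRIB1.

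**Figure D4:**
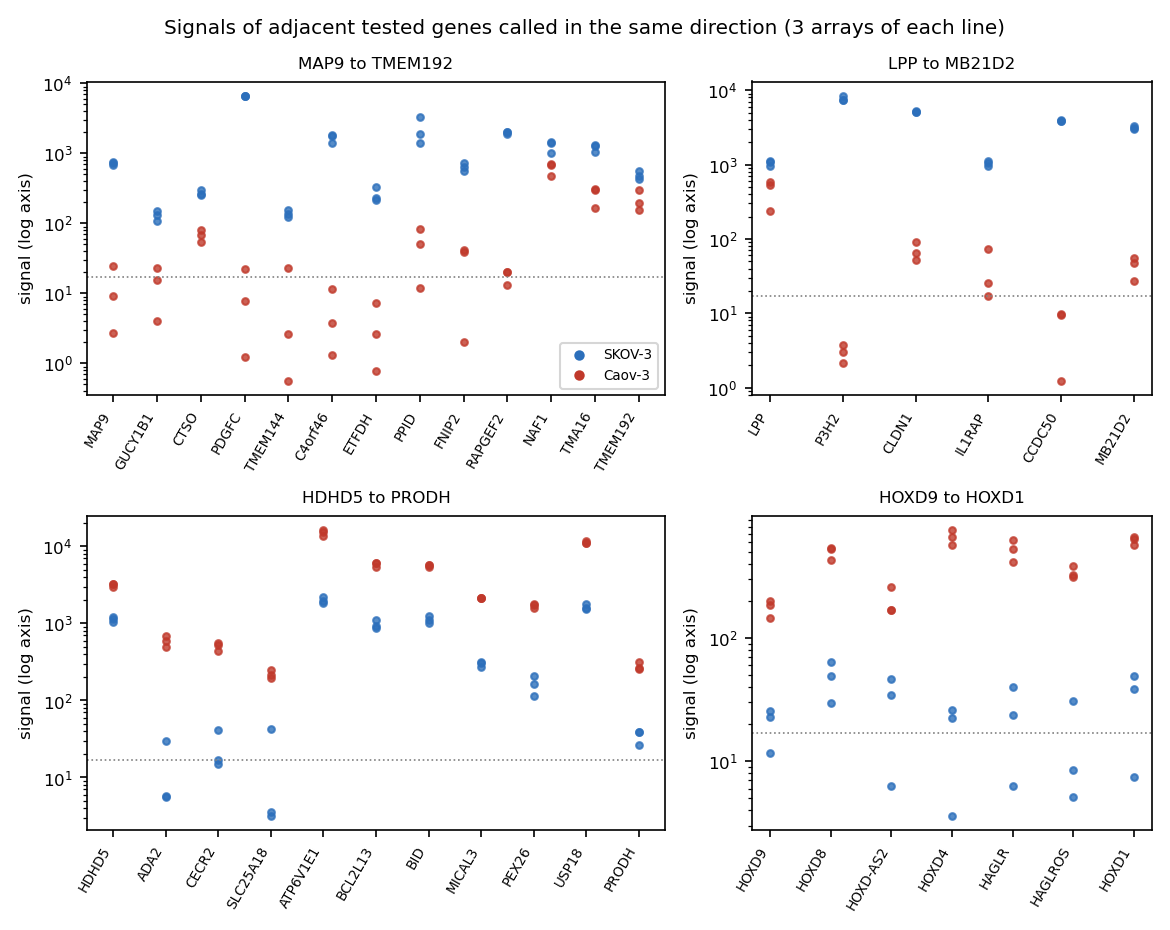
Deposited signals (log axis) of genes in 4 runs of adjacent tested genes called in the same direction, in gene order along the x axis, with 3 points for each line (SKOV-3 blue, Caov-3 red) and the pseudocount of 17.06 as a dotted line. In the runs from MAP9 and from LPP the SKOV-3 points lie above the Caov-3 points, and in the runs from HDHD5 and from HOXD9 below them.

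The difference between the lines was much the same in each treatment for most genes. The paired differences correlated across the 12651 genes at r = 0.923 between the untreated and IL-6 pairs, 0.948 between untreated and siltuximab plus IL-6, and 0.936 between IL-6 and siltuximab plus IL-6 (Spearman 0.883, 0.920 and 0.900). Genes are not independent replicates, so no p is given. The 3 differences of a gene spanned a median of 0.39, and 1668 genes (13.2%) spanned at least 1, of which 766 were kept genes. Of these 1668, 37 were among the 3166 brightest genes, those at or above the 75th percentile of signal, and 1631 among the rest. Over all 1668 the IL-6 pair was the farthest from the other 2 in 747 (44.8%), the untreated pair in 547 (32.8%) and the siltuximab plus IL-6 pair in 374 (22.4%). Among the 37 bright genes the IL-6 pair was the farthest from the other 2 in 34. In 33 the Caov-3 IL-6 array, the one with the low beta-actin ratio, was the array farthest from its line's median, and in 32 it was below it.

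The 10 bright genes with the widest span all had their odd value in the IL-6 pair. IFI6 was at 8132, 7332 and 7150.1 in SKOV-3 and 4495, 428 and 6350.3 in Caov-3, with paired differences of -0.85, -4.05 and -0.17. RBM3, a cold-inducible RNA-binding protein, was at -0.64, -3.54 and -1.41, and the pseudogene NACA4P at -0.27, -4.09 and -0.63. ALYREF, an mRNA export factor, was at -0.37, -2.05 and -0.59 and the kinase gene CDK13 at 0.22, -2.25 and 0.19, with UBXN2A at 0.39, -2.12 and -0.11, POLE3 at -0.07, -2.25 and -0.55, EIF3I at 0.43, -1.89 and -0.11, TCF3 at -1.05, -2.13 and -0.52 and ZNF721 at -0.05, -1.53 and 0.400. IFI6, RBM3, ALYREF and TCF3 were called higher in SKOV-3, but RBM3 was at 0.28 and TCF3 at -0.16 without _x_at and _s_at probe sets. Without the Caov-3 IL-6 array IFI6, ALYREF and TCF3 were at -0.51, -0.48 and -0.79 and no longer reached 2-fold. The part of RNA quality in these values was not tested.

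**Figure D5:**
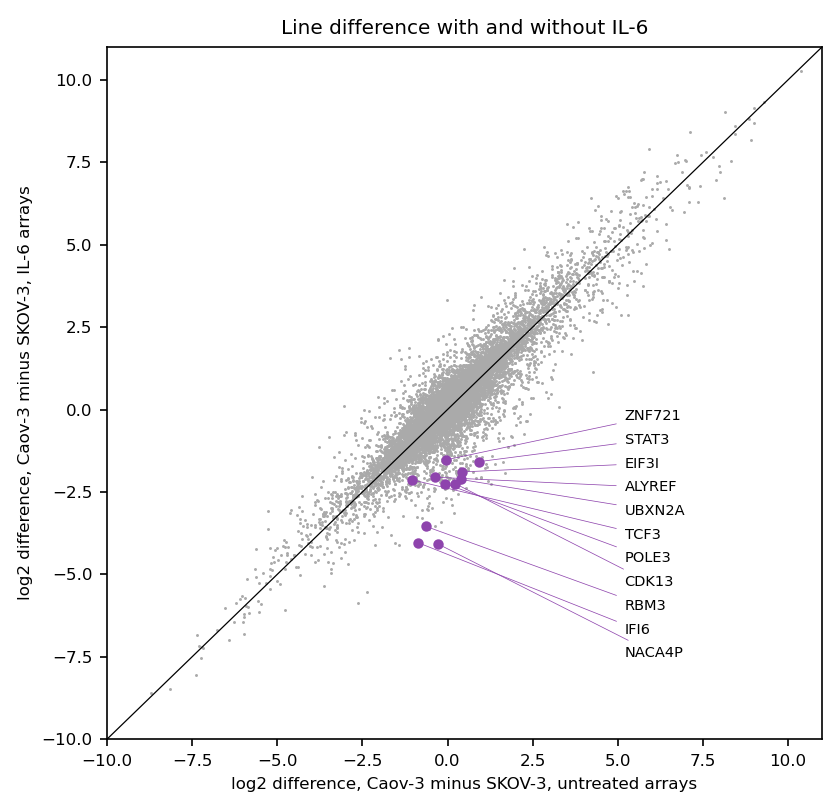
Log2 difference (Caov-3 minus SKOV-3) of each tested gene on the untreated arrays (x axis) and the IL-6 arrays (y axis), with the line of equal values. Most genes lie near the line (r = 0.923). Purple points are the 10 bright genes with the widest span over treatments and STAT3, all below the line.

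Probe sets of a gene usually pointed the same way. Of 1992 called genes with at least 2 usable probe sets, 1882 (94.5%) had all of them in the same direction and 110 did not and were dropped, as were 3 genes with no usable probe set, and 2302 kept genes rested on a single usable probe set. Among the dropped genes was CD9, a tetraspanin, whose brightest probe set was at 4534, 4072 and 3824 in SKOV-3 and 18530, 17534 and 17146 in Caov-3 (2.096) and whose second differed by -3.22. The protease gene CAPN1 had 2.05 and -1.24. ARHGEF37, DIO2 and RALGPS1 were likewise called higher in Caov-3 (2.64, 2.78 and 2.15) with at least 1 probe set the other way, and ARHGAP23, BCAN, BICD1, CBX2 and PHLDA1 higher in SKOV-3 (-2.37, -2.03, -2.18, -3.14 and -2.62). In PHLDA1 5 of 6 usable probe sets were lower in Caov-3, and in BICD1 1 of 6 was. Genes just inside the 2-fold limit were MAPK6, ZNF444 and GCC2 (1.0001), and just outside it PLCG1 (-0.9999), DPP7 (-0.9995) and FRMD4A (-0.9994). By adjusted p, IFI6, ACCS and PCAT7 lay just inside (0.0498, 0.0477 and 0.0476) and IL10RB, NRP2 and CTDP1 just outside (0.0503, 0.0528 and 0.0541).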

How the data were processed

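RNA of 6 samples, 1 for each of 2 lines and 3 treatments, each pooled from 3 flasks, was measured on Affymetrix U133 Plus 2.0 arrays. The authors deposited MAS5 signal, a linear intensity for each of 54675 probe sets scaled by array. Affymetrix Expression Console and MAS5 are named in the submitters' processing notes, with versions not given in the sources used here. Of the probe sets, 62 were controls, 41091 had 1 gene symbol, 1801 several and 11721 none in GEO's platform annotation, and only those with 1 symbol named a gene. The deposited signal was used without further scaling, after adding 17.06, the 20th percentile, and taking log2. The MAS5 intensities carry no detection calls here, and the 6 arrays limit the precision. A gene stood for its brightest probe set and was tested when at least 3 of 6 values reached the array median.

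The line difference was tested with limma 3.58.1 in R 4.3.3 (lmFit, then eBayes with a trend), with treatment as a block, which left 2 residual degrees of freedom, and p-values were adjusted by Benjamini-Hochberg over 12651 genes. No batch is given in the labels. Tested on simulated data with 50 changed genes of each size, the fit called 31 at a log2 change of 1.5 and 46 at 3, 32 at -1.5 and 44 at -3, and 1 of 12451 unchanged genes. Far fewer genes were changed there than were called in the data, and faults of a whole array were not simulated. The counts check the code and do not give the error rate of the calls. Genes named by rule were the 15 of each direction with the widest smallest paired difference, up to 4 called members of each list, a fixed set, the 10 at or above the 75th percentile of signal with the widest span over treatments, and 10 with disagreeing probe sets. Others were added after their values were seen. The members and gene lists were chosen with earlier results of these data known. Alternatives varied the pseudocount, scaling, filter, gene summary, block and arrays left out. Python 3.11.15, numpy 2.4.6, pandas 2.3.3 and matplotlib 3.10.9 were used for the other steps.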

Additional observations from a re-analysis of the deposited data

Results flagged for a closer look

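Several named genes had a line difference of both signs over the treatments, with 1 pair of arrays in each, and the difference between treatments was not tested. The paired differences of UBXN2A spanned 2.51, those of STAT3 2.50, those of CDK13 2.47, those of EIF3I 2.33 and those of ZNF721 1.93, and in each of the 5 the IL-6 pair had the lowest value. The other 4 had small spans around 0, at 0.30 for KRT8, 0.18 for EGFR, 0.0902 for MKI67 and 0.0541 for CAAP1.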

How the results depend on the processing

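Of 270 named genes tested, 150 had a value in all 19 alternatives, of which 122 kept direction and call and 140 kept direction. The other filters, the mean of all probe sets and leaving out _x_at and _s_at probe sets gave no value for some genes, and over the alternatives that gave one 227 of the 270 kept direction and call and 259 direction. With no minimum difference 8742 genes passed (4755 higher in Caov-3, 3987 in SKOV-3), 8006 with every probe set in the same direction (4265 and 3741). Kept genes higher in Caov-3 numbered 1592 with a filter on the mean signal and 1529 when it was set to the 75th percentile (1592 called). Genes spanning at least 1 over treatments numbered 443 with a pseudocount of 111, 5561 with no filter, 609 with the mean filter and 454 at the 75th percentile. Leaving out any array or pair gave 4289 to 4354 called genes, and fitting without the treatment block 4296. With the mean of all probe sets BICD1 turned to 0.14, CD9 to -0.68, CDK13 to 0.14 and ZNF721 to 0.29. Without _x_at and _s_at probe sets CAPN1 turned to -1.24, TAGLN to -0.0586, CAAP1 to -0.0770, RBM3 to 0.28, CDK13 to 0.66, UBXN2A to 0.52 and ZNF721 to 0.97. The cause was not tested. Leaving out arrays or pairs moved CDK13 from -1.03 to 0.21, EIF3I from -0.9995 to 0.16, STAT3 from -0.90 to 0.35, UBXN2A from -1.12 to 0.14 and ZNF721 from -0.79 to 0.17, each positive value without the IL-6 pair or either of its arrays. Under some alternatives the medians of keratins, G1 control, growth factor, DNA repair, hypoxia, cancer-testis, Wnt, leukocyte, endothelium and reference lists changed sign. Without detection calls, signals near background have no firm fold.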

Other observations

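Probe sets without a gene symbol also separated the lines. Of 11721 such probe sets 3860 passed the filter on low signal, and 342 were at least 2-fold higher in Caov-3 and 425 at least 2-fold higher in SKOV-3 in all 3 treatments, 19.9% of those that passed.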
